A study of Homo sapiens with 6 samples.

Results

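The change in gene expression over the first 3 h after release from a hydroxyurea block was described in U2OS, an established human osteosarcoma cell line. Growing cells had been held for 24 h in 4 mM hydroxyurea, then washed and returned to complete medium. They carried a non-targeting control siRNA (siNT) or an siRNA against E2F7 (siE2F7), and RNA was taken at 0 h, the G1/S transition, and at 3 h, in S phase. Each arm had 1 library at each time, so the 2 arms served as the 2 repeats of the time change, and 4 of the 6 libraries of the series were used. The siE2F7 arm also had less E2F7 transcript, so the arms are not identical repeats. The labels do not say whether the samples came from separate cultures, and the error of the tests reflects only the spread between these samples.

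Hydroxyurea blocks ribonucleotide reductase, the enzyme that makes deoxynucleotides, so that forks stall soon after origins fire. Washing it out restores deoxynucleotide supply and lets cells go through S phase together. E2F7 is a repressor of the E2F family that acts on genes of DNA replication, many of which are expressed at the G1/S border.

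Expression was measured by RNA sequencing and deposited as FPKM, fragment numbers divided by the length of the transcript and the size of the library. Of 13161 genes listed anywhere in the series, 12799 were listed at 0 h, 12475 at 3 h and 12234 at both. Genes above 0 in each of the 4 libraries with a mean of at least 5 FPKM were kept, which gave 8911 genes. The lowest mean inside this limit was 5.001 FPKM and the highest outside was 4.999 FPKM. FPKM summed to between 351305 and 375954 per library, and the median over the 8911 genes lay between 16.04 and 16.69. Depth is unknown, since FPKM carry no counts. All 6 mesenchymal markers were listed, led by VIM at 759 to 786 FPKM, SPARC at 447 to 528 and COL1A1 at 306 to 376. Of 4 epithelial markers 3 were listed at both times (KRT5 was not), and none of 5 blood or 3 endothelial markers was listed at both times. The summed level of the mesenchymal markers was between 1750 and 1890 FPKM, and that of the epithelial markers between 7.33 and 10.7 FPKM. E2F7 stood at 20.3 FPKM at 0 h and 29.4 at 3 h in the siNT arm and at 9.48 and 10.6 FPKM in the siE2F7 arm. Both libraries labelled siE2F7 were thus below both labelled siNT.

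Each time had been deposited as a table of its own, and whether the 0 h and 3 h tables were scaled together is not given in the sources used here. A difference in scaling between the tables and a change in the cells cannot be told apart for a shift shared by all genes. The median gene changed by -0.09 on the log2 scale in the siNT arm and by -0.04 in the siE2F7 arm. All changes below are log2 of (FPKM + 0.1) at 3 h minus the same at 0 h, a scale that understates the change of genes with low values.

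The change was largely shared by the arms. Of the 8911 genes, 6754 (75.8%) moved in the same direction in both, and the changes of the 2 arms had a Pearson correlation of 0.75 and a Spearman correlation of 0.69 across genes, which are not independent replicates. The SD across genes was 0.37 in each arm and 0.26 for the difference between the arms. With limma, arm as a block, 1060 genes were higher at 3 h (11.9% of those tested) and 1607 were lower (18%), at a Benjamini-Hochberg adjusted p of under 0.05 over all genes (29.9% in all). By size alone, 244 genes (2.74%) were at least 1.5-fold higher in both arms and 163 (1.83%) at least 1.5-fold lower. In 4 genes the arms moved at least 1.5-fold in opposite directions.

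The highest changes were all increases. At least 2-fold in both arms, 74 genes were higher and 12 lower, and at least 4-fold, 11 were higher and 0 lower. In 242 of the 244 genes raised at least 1.5-fold, both 3 h libraries lay above both 0 h libraries, and in 158 of the 163 lowered genes both lay below, against 1822 and 3019 of all 8911 genes. Genes picked for their change, here and below, are likely to show this order, so it is no separate support. The raised genes had a median of 8.58 FPKM at 0 h and 17.1 at 3 h, and the lowered genes 11.5 and 6.57 FPKM. Through the level filter, 49 of the 244 had been kept for their level at 3 h alone, being under 5 FPKM in both arms at 0 h, and 37 of the 163 were under 5 FPKM in both arms at 3 h. When the level difference between the arms was left in the error (no arm block), limma called 67 of the 8911 genes higher and 8 lower. With so few calls over all genes, 0 calls in a list without the arm block, here and below, is near the share over all genes. IL8, CCL20, CCDC144NL, NR4A1, IL11, TM4SF1, LOC90499, H1F0, HIST1H2AC, DHRS2, AREG, BTG1, PPP1R3C and ITPRIP were among these 67, and BIRC3 was not.

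**Figure D1:**
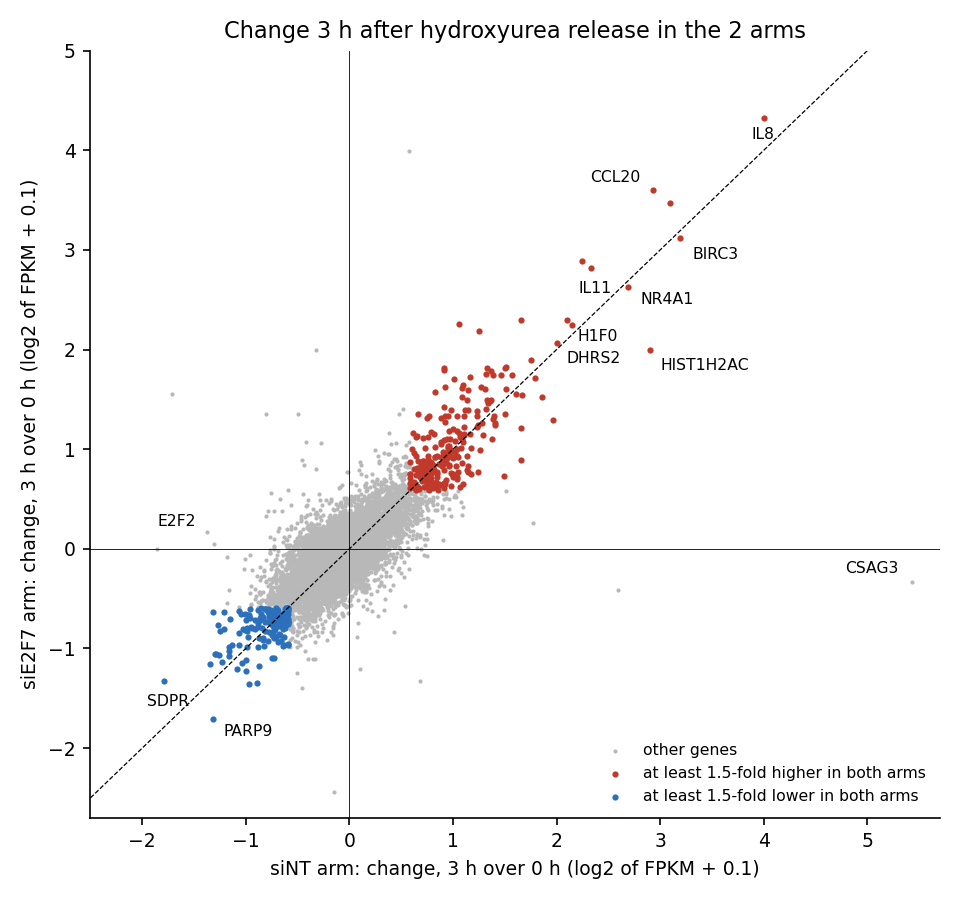
Change from 0 h to 3 h in the siNT arm (x axis) and the siE2F7 arm (y axis), both as log2 of FPKM + 0.1, 1 point per gene for 8911 genes. Red points are the 244 genes at least 1.5-fold higher in both arms, blue the 163 at least 1.5-fold lower; the raised genes reach further from 0 than the lowered ones, IL8 lies at 4.00 and 4.32, and CSAG3 and E2F2 lie far from the dashed line of equal change.

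Chemokines and cytokines led the increase. IL8 (CXCL8; chr4:74606223-74609433 in hg19), a neutrophil chemokine and a classical target of the transcription factor NF-kB, was at 3.71 FPKM at 0 h and 60.7 at 3 h in the siNT arm and at 2.53 and 52.6 FPKM in the siE2F7 arm. This was 16.4-fold and 20.8-fold, a mean change of 4.16 ± 0.11 (SE; limma adjusted p = 1.4e-12). CCL20 (chr2:228678558-228682280), the chemokine that binds CCR6, went from 3.49 to 27.3 FPKM with siNT and from 1.97 to 24.9 with siE2F7. IL8 and CCL20 were under 5 FPKM in both 0 h libraries and had passed the level limit only through 3 h. A high level at 3 h was thus required for them to be kept. IL11 (chr19:55875757-55881814), a cytokine of the interleukin 6 family, went from 6.99 to 35.7 and from 6.93 to 49.7 FPKM. BIRC3 (chr11:102188181-102210135), a ubiquitin ligase of tumour necrosis factor signalling, was at 3.28 and 30.7 FPKM with siNT and at 1.39 and 12.9 FPKM with siE2F7. Its fold was alike in the arms (9.36 and 9.24) while its level was lower in the siE2F7 arm at both times.

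NF-kB is held in the cytoplasm by inhibitor proteins, and once freed it switches on cytokines, survival factors and its own inhibitors. Of 22 genes on a list of NF-kB targets and cytokines, 12 were measured, 11 were called higher by limma and 0 lower (0 also at an unadjusted p under 0.05), with a median change of 1.01 against -0.07 over all genes tested. The 11 were 91.7% of those measured, against 11.9% of all genes. Among the subunits, RELB rose from 6.1 to 17.5 FPKM in the siNT arm and from 5.96 to 15.4 in the siE2F7 arm. NFKB1 rose from 11.1 to 21.2 and from 13.2 to 19.3 FPKM, and NFKB2 from 22.8 to 39.7 and from 22.5 to 31.2 FPKM. The smaller change in NFKB1 and NFKB2 still left both 3 h libraries above both 0 h libraries. Of the inhibitors, NFKBIE was at 5.99 and 14.1 FPKM with siNT and 4.77 and 11.3 with siE2F7, and NFKBIA changed least among the called members, by 0.32 ± 0.12 (limma adjusted p = 0.049). LIF, another cytokine of the interleukin 6 family, rose from 14 to 35.6 and from 9.05 to 25.1 FPKM. The survival gene BIRC2 rose by 0.78 and the antioxidant enzyme SOD2 by 0.45 on the log2 scale. CCL2 was the member not called, at 10.7 and 9.48 FPKM with siNT and 5.87 and 7.26 with siE2F7, and the arms moved in opposite directions. Below the level limit, TNFAIP3, an inhibitor of the same pathway, was at 1.64 and 6.74 FPKM with siNT and 1.78 and 5.64 with siE2F7, and TRAF1 at 1.36 and 5.96 and at 1.12 and 4.47 FPKM. TNFAIP2, a further target below the limit, was at 4.24 and 4.33 and at 3.5 and 3.58 FPKM. CXCL3, IL6 and PTGS2 were listed at 3 h only, between 1.18 and 2.88 FPKM. IL8 and BIRC3 had passed the level limit only through 3 h, and 9 of the 10 others were called higher, with a median of 0.76. Without the arm block, 3 of the 12 members were called higher, against 67 of all 8911 genes.

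The stretches upstream of the 3 leading genes with a match to NF-kB letters are shown as examples of such letters. The searched motifs were GGG, any 2 bases and TTTCC, and GGAATTTCC, on both strands of the 250 bases before each RefSeq start (GRCh38.p14), and the motifs can overlap each other. They were found in 1.73% and 0.413% of 35116 RefSeq promoters of that length. Capitals mark the match, which begins 91 bases before the start in IL8, 199 in BIRC3 and 79 in CCL20. Among the other named genes, NFKB2 and NFKBIA, called higher, and POLA2, called lower, also had a match. IL11, called higher, had none in its searched promoter. A match is a description of these letters, not a site shown to be bound. A comparison of such shares between raised and other genes is void, since only 192 of the 244 raised genes and 7126 of the 8911 genes, under 80% in each case, had a promoter in the table.
IL8, chr4:73740452-73740511, plus strand: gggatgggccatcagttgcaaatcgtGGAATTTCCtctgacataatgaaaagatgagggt
BIRC3, chr11:102317260-102317319, plus strand: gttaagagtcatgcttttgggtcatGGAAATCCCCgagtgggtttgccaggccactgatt
CCL20, chr2:227813738-227813797, plus strand: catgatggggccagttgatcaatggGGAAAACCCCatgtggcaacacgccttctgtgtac

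Immediate early genes are those that growth factors and stress switch on within minutes to hours without new protein synthesis. Of 38 on the list, 24 were measured, 20 were called higher by limma (83.3% against 11.9% of all genes) and 1 lower (4.17% against 18%), with a median change of 0.55. NR4A1 (chr12:52416616-52453291), an orphan nuclear receptor, was at 5.34 FPKM at 0 h and 35.1 at 3 h with siNT, and at 6.97 and 43.5 FPKM with siE2F7, a mean change of 2.66 ± 0.10 (limma adjusted p = 1.2e-10). The phosphatase DUSP1, which switches off MAP kinases, rose from 15.5 to 40.3 and from 14.7 to 50.9 FPKM. HBEGF, a ligand of the EGF receptor, rose from 16.8 to 42.2 and from 11.1 to 31.3 FPKM. The small GTPase gene RHOB rose from 11.5 to 24.8 and from 15.6 to 48.9 FPKM. In each of these 4 genes both 3 h libraries lay above both 0 h libraries. AREG, another EGF receptor ligand and not on this list, rose from 12.4 to 41.9 and from 13.1 to 49.1 FPKM.

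The AP-1 subunits and regulators changed less and unevenly. JUNB (0.64), FOSL1 (0.49), FOSL2 (0.41) and MYC (0.45) were called higher, as mean log2 changes, while JUN (0.12, limma adjusted p = 0.36) and JUND (-0.11, adjusted p = 0.45) were not called. FOS was under the level limit, at 3.11 and 3.18 FPKM with siNT and 2.88 and 3.84 with siE2F7. Of the other early genes under it, PHLDA1 was at 2.92 and 7.69 and at 2.15 and 6.26 FPKM, KLF2 at 3 and 2.84 and at 6.54 and 3.37, and ZFP36 at 4.62 and 3.28 and at 3.11 and 2.01 FPKM. EGR1, a zinc finger factor of the same early class, went the other way, from 18.9 to 12.7 FPKM with siNT and from 16.6 to 8.49 with siE2F7, and was the 1 member called lower (-0.77 ± 0.11, limma adjusted p = 0.00018). NR4A2 was listed at 3 h only, at 7.09 FPKM with siNT and 11.7 with siE2F7, and NR4A3 likewise at 7.89 and 11.8 FPKM. A gene missing from the 0 h table was not necessarily low there: FOXM1 (90.5 and 102 FPKM at 3 h) and PKM2 (829 and 815) were also listed at 3 h and not at 0 h. Without the arm block, 2 of the 24 members were called higher, against 67 of all 8911 genes.

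Genes of TGF-beta, BMP and Notch signalling followed. Of 15 listed, 10 were measured, 6 were called higher by limma and 0 lower (0 also at an unadjusted p under 0.05), with a median of 0.74. The 6 were 60% of those measured, against 11.9% of all genes. The ID proteins are BMP targets that hold back basic helix-loop-helix factors. ID2 was at 3.75 and 9.06 FPKM with siNT and at 2.61 and 12.3 with siE2F7, ID3 at 16.4 and 43.9 and at 29 and 69.8, and ID1 at 52.4 and 83.6 and at 47.2 and 80.2 FPKM. All 3 were higher in both 3 h libraries than in both 0 h libraries. Of the feedback inhibitors, SMAD7 rose by 0.79, BAMBI by 0.77 and the BMP antagonist NOG by 0.77 on the log2 scale. SMAD6, an inhibitory SMAD below the level limit, was at 2.72 and 1.82 FPKM with siNT and at 2.89 and 2.02 with siE2F7. The Notch target HEY1, also below the limit, was at 1.43 and 5.04 and at 1.59 and 3.69 FPKM, and ID4 and SKIL were listed at 3 h only. HES1, SNAI2, TGFBI and LTBP2 were not called, with changes between -0.16 and 0.26. ID2 and BAMBI had passed the limit only through 3 h, and 4 of the 8 others were called higher, with a median of 0.49. Without the arm block, limma called 0 of these members (6 at an unadjusted p under 0.05).

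A list of FOXO targets, which are held down by growth factor and insulin signalling, and of glucose-sensing genes had 15 measured members of 25. Of these, 9 were called higher by limma (60% against 11.9% of all genes) and 2 lower (13.3% against 18%), with a median of 0.59. CCNG2, an unconventional cyclin, rose from 5.51 to 14 FPKM with siNT and from 3.36 to 12.1 with siE2F7. CITED2, a transcriptional coregulator, rose from 19.1 to 47.4 and from 18.9 to 57.3 FPKM. DDIT4, an inhibitor of mTORC1, rose from 16.3 to 35.2 and from 16.8 to 42.5 FPKM. KLF9 (1.42), HBP1 (1.05), YPEL5 (0.66) and FOXO3 (0.44) were also called higher on the log2 scale, with HBP1 at a locus shared with another entry. CBX7, a Polycomb subunit, fell from 7.18 to 4.33 and from 9.08 to 6.19 FPKM, and the selenium carrier SEPP1 by 0.35 on the log2 scale, at a shared locus. Of those named here, CITED2, DDIT4 and HBP1 were still called without the arm block. FOXO1, below the level limit, was at 1.36 and 6.7 FPKM with siNT and at 1.13 and 5.99 with siE2F7. TXNIP, an inhibitor of thioredoxin, was at 3.2 and 5.95 and at 3.08 and 5.56 FPKM. The insulin receptor gene INSR, also below the limit, was at 1.77 and 1.65 FPKM with siNT and at 2.48 and 2.19 with siE2F7. The other 5 below it were ARRDC4, PIK3IP1, BCL6, CRY2 and MXD4, each higher at 3 h than at 0 h in both arms, ARRDC4 by no more than from 2 to 2.04 FPKM with siNT. KLF9 and YPEL3 had passed the limit only through 3 h, and 7 of the 13 others were called higher, with a median of 0.44.

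**Figure D2:**
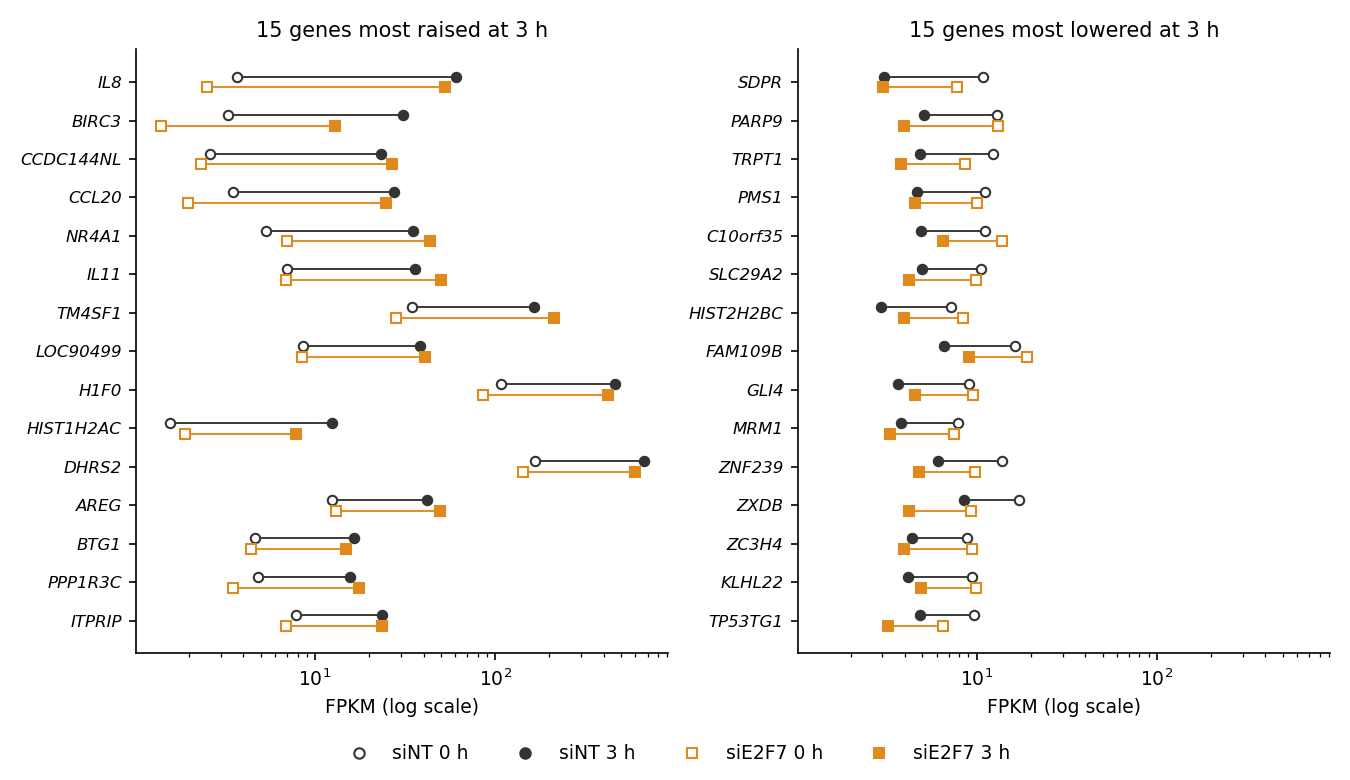
FPKM on a log axis at 0 h (open symbols) and 3 h (filled symbols) in the siNT arm (circles) and the siE2F7 arm (squares), 1 library per symbol, for the 15 genes with the highest and the 15 with the lowest change ranked by the weaker arm. In each of the 15 raised genes both 3 h symbols lie to the right of both 0 h symbols, while H1F0 and DHRS2 start from 85.2 FPKM or more and IL8 and BIRC3 from 3.71 FPKM or less.

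Histone genes changed in both directions. H1F0 (chr22:38201114-38203443) encodes the replacement linker histone H1.0, which accumulates in cells that leave the cycle. It was at 108 FPKM at 0 h and 463 at 3 h with siNT and at 85.2 and 421 FPKM with siE2F7, a mean change of 2.20 ± 0.12 (limma adjusted p = 5.4e-09). Replication-dependent histone transcripts normally end in a stem-loop and carry no poly(A) tail, and only 5 of 65 on the list passed the level limit. Of these, 4 were called higher by limma (80% against 11.9% of all genes) and 0 lower (0 also at an unadjusted p under 0.05). HIST1H2AC passed the limit only through its level at 3 h, and 3 of the 4 others were called. Without the arm block, HIST1H2AC alone of the 5 was called. HIST1H2AC went from 1.57 to 12.4 FPKM with siNT and from 1.89 to 7.87 with siE2F7, and HIST1H2BJ from 5.19 to 16.6 and from 4.78 to 11.2 FPKM. HIST1H2BK, the most abundant of the 5, rose from 51.8 to 122 and from 36.2 to 61.8 FPKM. The increase of these 3 was larger in the siNT arm, and the difference between the arms was not tested. HIST1H2BD was at 5.86 and 7.28 FPKM with siNT and at 5.08 and 3.97 with siE2F7 and was not called. Below the limit, HIST1H2BC, HIST1H2BE, HIST1H2BL and HIST2H2AC were higher at 3 h in both arms. HIST1H2AG, HIST1H2BN, HIST1H4H, HIST2H2AA3, HIST2H2AA4, HIST2H2BE, HIST2H4A and HIST2H4B were higher with siNT and lower with siE2F7. HIST1H4J was lower in both arms. HIST2H2BC, which is not on the list, was among the 15 lowest genes, at 7.18 and 2.94 and at 8.44 and 3.97 FPKM. Among histone supply factors, 2 of 14 measured members were called higher (14.3%) and 3 lower (21.4%), shares near the 11.9% and 18% of all genes. H3F3B, which encodes the variant H3.3, rose by 0.70 and the chaperone NASP by 0.42, while ASF1B, CHAF1B and LSM10 fell by 0.56, 0.38 and 0.64 on the log2 scale. SLBP, the stem-loop binding protein, was at 32.7 and 32.7 FPKM with siNT and at 50.9 and 69.8 with siE2F7.

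Further genes of the 15 highest have varied roles. DHRS2, a short-chain dehydrogenase, was the most abundant, at 167 and 669 FPKM with siNT and at 142 and 596 with siE2F7. TM4SF1, a cell surface protein of the tetraspanin-like family, rose from 34.5 to 165 and from 28.3 to 211 FPKM. BTG1, an antiproliferative gene, rose from 4.67 to 16.4 and from 4.42 to 14.8 FPKM. PPP1R3C, a glycogen-targeting subunit of protein phosphatase 1, rose from 4.85 to 15.6 and from 3.5 to 17.6 FPKM. CCDC144NL, LOC90499 (at a locus shared with another entry) and ITPRIP completed the 15, with mean changes of 3.29, 2.20 and 1.66. BTG1, PPP1R3C and CCDC144NL had passed the level limit only through 3 h. Chosen after their values were seen, other secreted or surface proteins raised at least 2-fold in both arms were INHBA, an activin subunit (23.8 to 72.8 and 18.9 to 55.6 FPKM), the urokinase receptor PLAUR (43.8 to 93.9 and 44.7 to 93.9), SEMA7A (26.8 to 56.8 and 24.2 to 48.7), BMP5 (11.6 to 24.2 and 8.25 to 18.6) and the immune checkpoint ligand CD274 (3.02 to 8.77 and 2.39 to 7.48). INHBA, PLAUR, SEMA7A, BMP5 and CD274 were each higher in both 3 h libraries than in both 0 h libraries, which their choice by fold made likely. CD274 too had passed the level limit only through 3 h. PIM1, a kinase chosen in the same way, rose from 12.2 to 25.1 FPKM with siNT and from 37.3 to 84.8 with siE2F7, so that the fold was near-equal on different starting levels.

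The levels at 12 h, from another separately deposited table whose scaling to the others is not given, differed among the leading genes. IL8 stood at 12.7 FPKM at 12 h with siNT and 11 with siE2F7, CCL20 at 5.8 and 3.02, IL11 at 6.32 and 6.14, NR4A1 at 7.53 and 7.21, and AREG at 9.56 and 11.1 FPKM. In these 5 genes both 12 h values were below both 3 h values, and in IL11 and AREG also below both 0 h values. In IL8 and NR4A1 both 12 h values were above both 0 h values. H1F0 was at 535 and 361 FPKM at 12 h, DHRS2 at 876 and 551, and LOC90499 at 51.9 and 52 FPKM. These 3 were also above both 0 h libraries at 12 h in both arms, while H1F0 and DHRS2 with siE2F7 were below their 3 h level. BIRC3 (11.4 and 4.94 FPKM), CCDC144NL (13.8 and 11.1) and TM4SF1 (77.7 and 107) lay at 12 h between their 0 h and 3 h levels in both arms. HIST1H2AC was at 17.1 FPKM with siNT and 3.69 with siE2F7.

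Some of the genes of DNA replication were called lower at 3 h. This is the group that E2F factors are known to drive, and it includes helicase, primase, polymerase and fork proteins. Of 32 measured genes of the fork and the replicative polymerases, 0 were called higher by limma (0 also at an unadjusted p under 0.05) and 16 lower (50% against 18% of all genes), with a median of -0.37 in the siNT arm and -0.14 in the siE2F7 arm. WDHD1, a polymerase alpha accessory factor, fell from 17.7 to 11.3 FPKM with siNT and from 23.2 to 13.8 with siE2F7. The primase subunit gene PRIM2 fell from 36.3 to 23.7 and from 37.8 to 24.6 FPKM, and the polymerase alpha subunit gene POLA2 from 29.9 to 19.5 and from 31.7 to 21.1 FPKM. In WDHD1, PRIM2 and POLA2 both 3 h libraries lay below both 0 h libraries. RFC3 (0.13), POLE3 (0.05), LIG1 (0.05) and POLE (-0.04), which load the clamp, extend the leading strand or join fragments, were not called. PCNA, the sliding clamp, at a shared locus, was at 225 and 161 FPKM with siNT and at 346 and 388 with siE2F7, moving in opposite directions. Rescaling by the median, the quantiles or the sum left 13, 18 and 14 members called lower and 0 higher. Over all 8911 genes, 1313, 1656 and 1242 were called lower in these settings. Without the arm block limma called 0 members (6 lower at an unadjusted p under 0.05), and 8 of all 8911 genes lower.

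Origin licensing and firing genes had 27 measured members, of which 10 were called lower by limma (37% against 18% of all genes) and 1 higher (3.7% against 11.9%). Their median was -0.22. The origin recognition subunit ORC2 fell from 15 to 11.1 FPKM with siNT and from 13.9 to 7.53 with siE2F7, and ORC5 from 19.6 to 11.9 and from 16.3 to 11.5 FPKM. CDC7, the kinase that fires origins, fell from 17.7 to 10.2 and from 18.3 to 13 FPKM. Both 3 h libraries of ORC2, ORC5 and CDC7 lay below both 0 h libraries. The helicase subunits depended more on the arm: MCM6 was at 32.9 and 22.4 FPKM with siNT and at 110 and 91.5 with siE2F7, and MCM5 at 51.9 and 34.5 and at 136 and 126 FPKM. Both were called lower (-0.41 and -0.35 as mean changes), while their level differed more between the arms than between the times. MCM3 was at 86.6 and 74.3 FPKM with siNT and at 143 and 174 with siE2F7 and was not called. TOPBP1, an activator of the ATR kinase, was the member called higher, at 29.5 and 36.5 and at 38.7 and 46 FPKM.

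Nucleotide synthesis genes changed in both directions, with 1 of 19 measured members higher (5.26% against 11.9% of all genes) and 6 lower (31.6% against 18%) by limma. The median was -0.26 in the siNT arm and 0.01 in the siE2F7 arm. CTPS, which makes CTP, rose from 76.2 to 117 FPKM with siNT and from 79.8 to 117 with siE2F7. The pyrimidine enzymes CAD (27.2 to 20.1 and 28.8 to 18.1 FPKM) and UMPS (13.2 to 8.85 and 10.5 to 7.3 FPKM) fell. RRM2, the regulated subunit of the enzyme that hydroxyurea inhibits, was at 175 and 194 FPKM with siNT and at 301 and 383 with siE2F7 and was not called (limma adjusted p = 0.14). RRM1, its partner, changed by -0.06 and RRM2B, the p53-induced subunit, by 0.15, and neither was called.

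Of 31 measured genes of the replication checkpoint and fork repair, 10 were called lower (32.3% against 18% of all genes) and 2 higher (6.45% against 11.9%) by limma. BRCA1 fell from 18.9 to 12.6 FPKM with siNT and from 23.4 to 14.4 with siE2F7. RMI1 and RMI2, partners of the BLM helicase, fell by 0.58 and 0.66 on the log2 scale, and the nuclease subunit gene EME1, at a shared locus, by 0.83. EME1 and ATR had passed the level limit only through 0 h. Of the 29 others, 8 were called lower and 2 higher, with a median of -0.11. EXO1, an exonuclease of resection and mismatch repair, rose from 26.8 to 35.2 and from 37 to 50.4 FPKM, and the kinase WEE1, which restrains mitotic entry, from 21.1 to 25.5 and from 31.9 to 41.8 FPKM. Among the G1/S regulators, 3 of 24 measured were called higher (12.5%) and 4 lower (16.7%), shares near the 11.9% and 18% of all genes. The CDK inhibitor CDKN1B rose from 9.67 to 12 and from 9.19 to 14.6 FPKM, whereas cyclin CCNE2, at a shared locus, went from 28.6 to 17.3 with siNT and from 60.4 to 55.8 with siE2F7.

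Genes of G2 and mitotic entry moved in both directions. Of 61 measured, 10 were called higher by limma (16.4% against 11.9% of all genes) and 4 lower (6.56% against 18%). The median was 0.03 in the siNT arm and 0.22 in the siE2F7 arm. NEK2, a centrosomal kinase, rose from 17.3 to 25.5 FPKM with siNT and from 16.1 to 28.6 with siE2F7, and the spindle gene ASPM from 6.99 to 10.8 and from 7.4 to 12.9 FPKM. TOP2A, the topoisomerase of chromosome condensation, rose from 99.9 to 134 and from 122 to 167 FPKM. The main mitotic switch genes were not called: CDK1 was at 175 and 175 FPKM with siNT and at 184 and 220 with siE2F7, and CCNB1 at 86.5 and 93.6 and at 71 and 87.5 FPKM. The shugoshin genes SGOL1 and SGOL2, which protect centromeric cohesion, fell by 0.46 and 0.35 on the log2 scale, as did HMMR and DEPDC1. The number called higher depended on scaling, at 15 with median centring, 20 with quantile normalization and 19 with rescaling to the same sum. Over all 8911 genes the calls higher also moved, from 1060 as deposited to 1246, 1467 and 1219. The limma calls of licensing, nucleotide, checkpoint, G1/S and mitotic genes were all lost without the arm block. Only 67 of all 8911 genes were then called higher and 8 lower, so this loss is not particular to these lists.

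**Figure D3:**
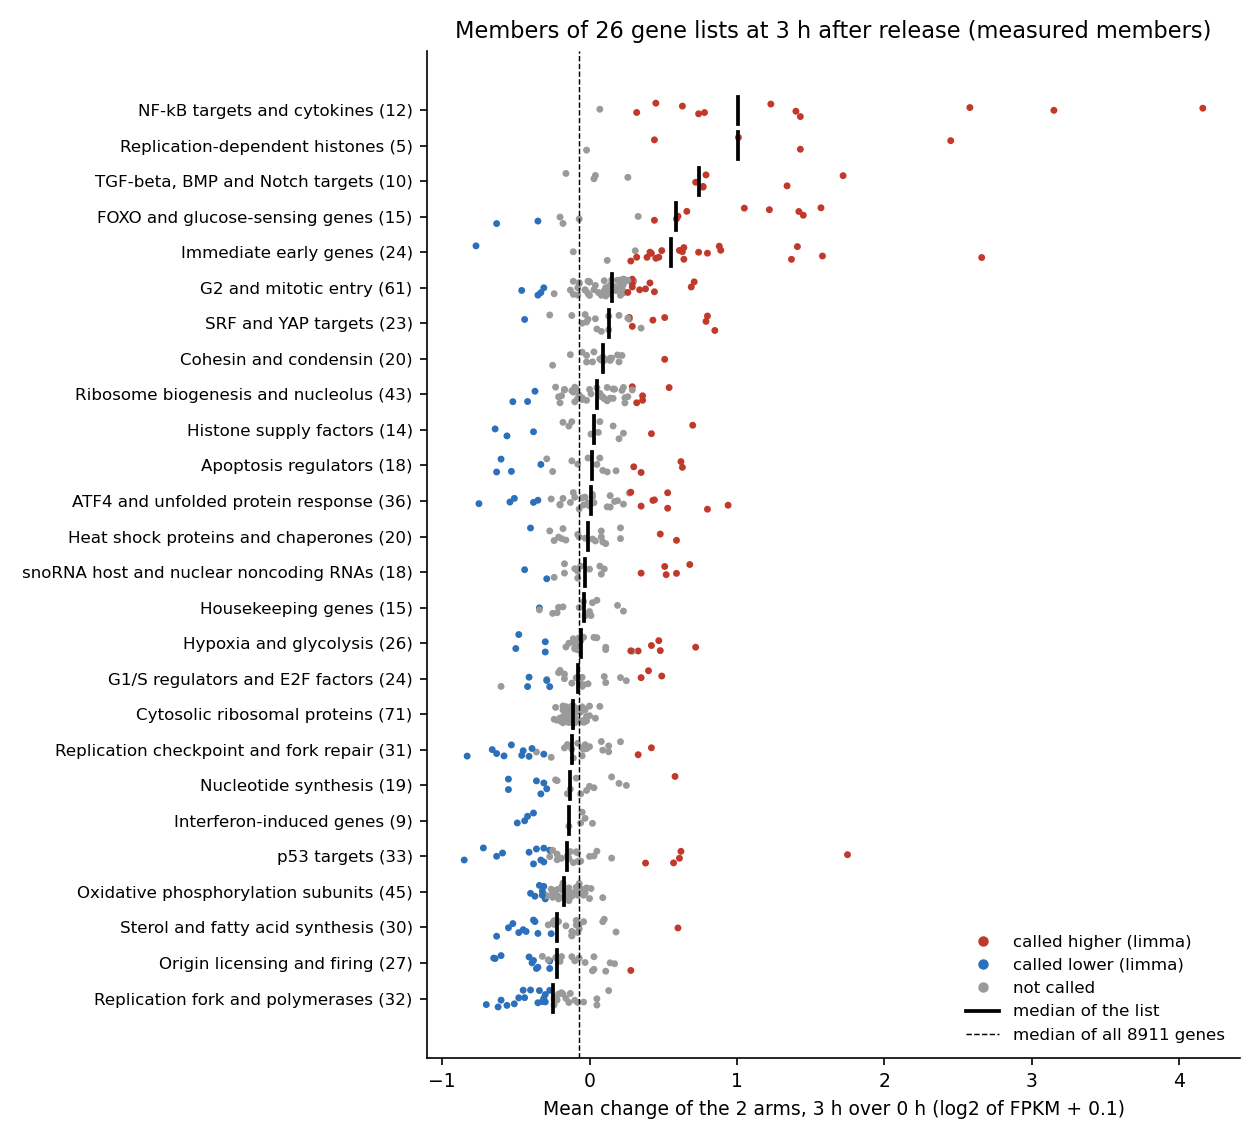
Mean log2 change of the 2 arms from 0 h to 3 h for each measured member of 26 gene lists, with the number measured in brackets; red and blue points were called higher and lower by limma, grey points were not called, thick bars are list medians and the dashed line is the median of all 8911 genes. The NF-kB list and the histones lie furthest right (medians of 1.01), and the replication fork list furthest left (median of -0.25).

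The p53 targets, which DNA damage raises, did not move as one. Of 33 measured, 11 were called lower (33.3% against 18% of all genes) and 5 higher (15.2% against 11.9%) by limma, with a median of -0.15. The repair genes XPC (23.4 to 12.4 and 21 to 12 FPKM) and POLH (19 to 11.5 and 21.4 to 12.9 FPKM, at a shared locus) fell, as did the pro-apoptotic BBC3 (13.8 to 8.85 and 11 to 7.07 FPKM, at a shared locus). PMAIP1, another pro-apoptotic gene, rose from 51.2 to 71.9 and from 53.4 to 89.6 FPKM, and ATF3 from 26.5 to 37.5 and from 24.1 to 39.8 FPKM. CDKN1A, the p21 inhibitor, was at 166 and 158 FPKM with siNT and at 232 and 261 with siE2F7, and MDM2 at 48 and 45.4 and at 43.8 and 40.6 FPKM, and neither was called. BTG1, also on the p53 list and called higher, had passed the level limit only through 3 h. Of the 32 others, 4 were called higher and 11 lower, with a median of -0.17. MCL1, an anti-apoptotic gene, rose from 63.1 to 97.6 and from 82.8 to 128 FPKM.

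Interferon-induced genes, which often move with NF-kB targets in infection, had 9 measured members of 28. Of these 9, 0 were called higher by limma (0 also at an unadjusted p under 0.05) and 4 lower (44.4% against 18% of all genes). IFITM3 fell from 48.2 to 31.2 FPKM with siNT and from 36.2 to 28.5 with siE2F7, and STAT2, UBE2L6 and IFIT5 by 0.42, 0.44 and 0.38 on the log2 scale. IRF1 was at 5.97 and 6.13 FPKM with siNT and was not called. Sterol and fatty acid synthesis genes had 10 of 30 measured members lower (33.3% against 18% of all genes) and 1 higher (3.33% against 11.9%), with a median of -0.22. MVK, MVD and HSD17B7 fell by 0.63, 0.52 and 0.55 on the log2 scale, and SCD, the fatty acid desaturase, from 148 to 115 and from 117 to 77.7 FPKM. HMGCS1, an early enzyme of the same route, rose from 89.3 to 127 and from 90.7 to 147 FPKM. The calls of both groups were lost without the arm block, as were those of the p53 targets other than BTG1.

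Of 36 measured genes of the ATF4 and unfolded protein responses, 8 were called higher (22.2% against 11.9% of all genes) and 5 lower (13.9% against 18%) by limma. HERPUD1, a factor of endoplasmic reticulum degradation, rose from 32.7 to 55.5 and from 29 to 63 FPKM, and the amino acid transporter subunits SLC7A5 and SLC3A2 by 0.80 and 0.53 on the log2 scale. PSPH, AARS and TRIB3, which are ATF4 targets too, fell by 0.75, 0.54 and 0.51. Of 23 measured SRF and YAP targets, 7 were called higher (30.4% against 11.9% of all genes) and 1 lower (4.35% against 18%). THBS1 (54.4 to 115 and 49.6 to 76.5 FPKM), CTGF (98.4 to 161 and 75.4 to 138 FPKM) and EDN1 (7.51 to 12.4 and 3.88 to 7.24 FPKM) led the rise, while the myosin light chain MYL9 fell by 0.44. Quantile normalization raised the SRF and YAP count called higher to 12 of 23, and that over all 8911 genes from 1060 to 1467. Hypoxia and glycolysis genes had 6 of 26 higher (23.1% against 11.9% of all genes) and 4 lower (15.4% against 18%). The glucose transporters SLC2A3 and SLC2A1 rose by 0.72 and 0.48, and ENO2 fell by 0.50. Without the arm block, limma called none of the SRF and YAP members (5 higher and 2 lower at an unadjusted p under 0.05), none of the hypoxia members (3 and 2), and HERPUD1 alone of the ATF4 list.

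The most lowered genes had modest levels and mixed roles. SDPR (CAVIN2; chr2:192699032-192712006), a coat protein of caveolae, was at 10.9 FPKM at 0 h and 3.07 at 3 h with siNT and at 7.77 and 3.03 FPKM with siE2F7, a mean change of -1.56 ± 0.16 (limma adjusted p = 6.7e-06). PARP9, of the ADP-ribosyltransferase family and at a locus shared with another entry, went from 13 to 5.11 and from 13.1 to 3.94 FPKM. PMS1, of the mismatch repair family and also at a shared locus, went from 11.1 to 4.66 and from 10.1 to 4.54 FPKM. SDPR, PARP9 and PMS1 were each lower in both 3 h libraries than in both 0 h libraries, which their choice by change made likely. SDPR, TRPT1, PMS1, SLC29A2, HIST2H2BC, GLI4, MRM1, ZC3H4, KLHL22 and TP53TG1 had passed the level limit only through 0 h. The nucleoside transporter SLC29A2 went from 10.6 to 4.98 and from 9.91 to 4.24 FPKM, and the tRNA phosphotransferase TRPT1 from 12.4 to 4.82 and from 8.59 to 3.79 FPKM. FAM109B, C10orf35, ZXDB, ZC3H4, KLHL22, ZNF239, MRM1, GLI4 and TP53TG1 completed the 15 lowest, with HIST2H2BC, at mean changes between -1.18 and -0.99. Of these 15, SDPR, PARP9, PMS1, SLC29A2 and ZC3H4 were still called lower without the arm block.

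Of 71 measured cytosolic ribosomal protein genes, 0 were called in either direction by limma (0 also at an unadjusted p under 0.05). Their median was -0.25 in the siNT arm and 0.01 in the siE2F7 arm. With quantile normalization 13 of the 71 were called lower and 1 higher, against 1656 and 1467 of all 8911 genes. The 13 are thus near the share over all genes in that setting. Oxidative phosphorylation subunits had 8 of 45 called lower and 0 higher (0 also at an unadjusted p under 0.05), with medians of -0.28 and -0.06. The 8 were 17.8% of those measured, near the 18% of all genes. Ribosome biogenesis genes had 5 of 43 higher (11.6% against 11.9% of all genes) and 3 lower (6.98% against 18%). Cohesin and condensin genes had 1 of 20 higher (5% against 11.9% of all genes) and 0 lower (against 18%). The 1 was ESCO1, which passed the level limit only through 3 h. Of the 19 others, 0 were called. The heat shock proteins had 2 of 20 higher (10% against 11.9% of all genes) and 1 lower (5% against 18%). The snoRNA host and nuclear noncoding RNAs had 5 of 18 higher (27.8% against 11.9% of all genes) and 2 lower (11.1% against 18%). MALAT1 rose by 0.59 and NEAT1 fell by 0.29 on the log2 scale. For the apoptosis regulators, 4 of 18 were higher (22.2% against 11.9% of all genes) and 4 lower (22.2% against 18%). Without the arm block, limma called 0 of the noncoding RNA members (4 higher and 1 lower at an unadjusted p under 0.05) and 0 of the apoptosis members (2 and 3).

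The 2 arms differed in how the change went with gene length. Among genes at unshared loci, split into 5 equal groups by locus length, the median change in the siNT arm was -0.20 in the shortest (median 5.14 kb), then -0.13, -0.07, -0.03 and 0.02 in the longest (139 kb). In the siE2F7 arm the medians were -0.04, -0.05, -0.03, -0.03 and -0.05. The share called lower by limma went from 24.0% in the shortest group to 12.9% in the longest, and the share called higher from 10.7% to 14.3%. The siNT medians of the ribosomal protein (-0.25) and oxidative phosphorylation (-0.28) lists were below that of the shortest group. The part of this length pattern in the results on gene lists was not tested.

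**Figure D4:**
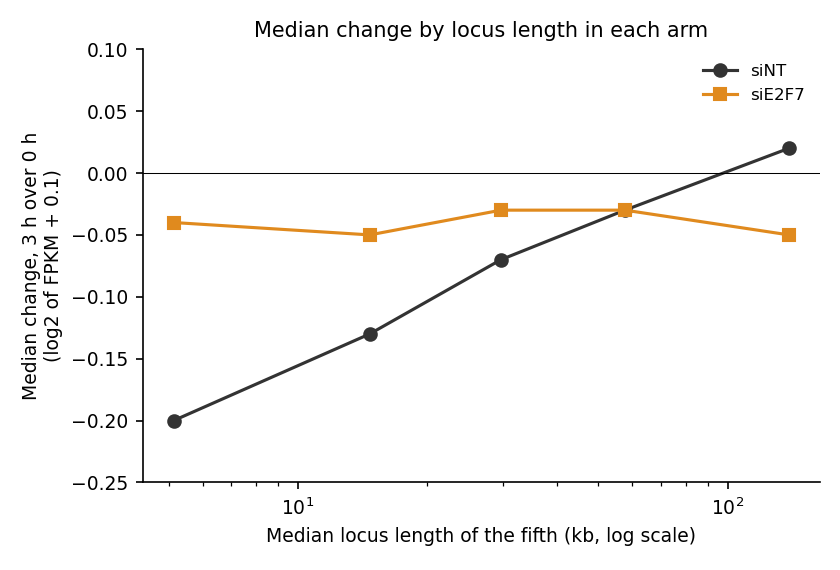
Median change from 0 h to 3 h (y axis, log2 of FPKM + 0.1) against the median locus length (x axis, kb, log scale) in 5 groups of about equal size, for the siNT arm (circles) and the siE2F7 arm (squares). The siNT medians run from -0.20 to 0.02 with length, while the siE2F7 medians lie between -0.05 and -0.03.

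Many transcripts of cytokines and early response genes are short-lived and carry AU-rich elements in their 3′ UTR, to which decay factors bind. The heptamer TATTTAT, searched on the transcript strand of GENCODE 29 3′ UTRs, was used as a simple mark of such elements. It was present in 54.2% of 227 genes at least 1.5-fold higher in both arms with a 3′ UTR, in 27.0% of 152 lowered genes and in 32.8% of all 8456 tested genes with one. The raised genes had longer 3′ UTRs, with a median of 1682 bases against 1043 in the lowered genes and 1135 in all. Within 3′ UTRs of 1000 to 3000 bases, the shares were 54.1% of 98 raised, 30.8% of 52 lowered and 39.6% of all 3004 genes. Over 3′ UTRs of all lengths, the density was 0.513, 0.224 and 0.318 copies per kb. The median GC content of the 3′ UTRs was 38.6% in the raised genes, 45.9% in the lowered genes and 41.7% in all. The sets of 244 raised and 163 lowered genes include the 49 kept only through 3 h and the 37 kept only through 0 h. Shares without those genes were not worked out. These shares are descriptions without a test.

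The share of genes called went with the number of copies. Of 5684 genes with no copy, 8.94% were called higher and 20.7% lower by limma, and of 488 genes with 3 or more copies, 24.2% were called higher and 7.79% lower. Genes with 1 copy (14.7% and 14.1%) and 2 copies (22.6% and 10.5%) lay between. The median change from no copy to 3 or more went from -0.14 to 0.12 in the siNT arm and from -0.06 to 0.05 in the siE2F7 arm. The parts of 3′ UTR length and base composition in these shares and in this order were not tested. Of all 8911 genes, 96 had passed the level limit only through 3 h and 135 only through 0 h, and they were not left out here.

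**Figure D5:**
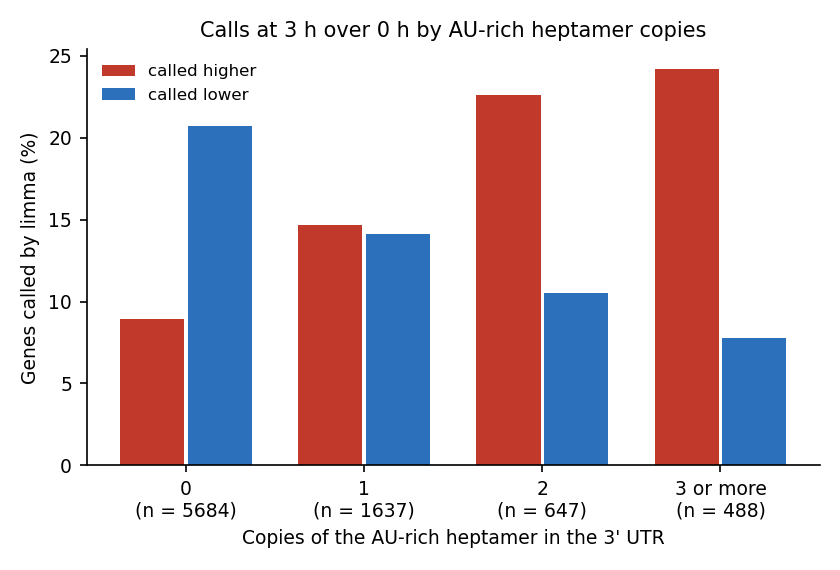
Percent of genes called higher (red) and lower (blue) by limma at 3 h over 0 h, by the number of copies of the AU-rich heptamer in the 3′ UTR, with the number of genes under each pair of bars. The share called higher goes from 8.94% with no copy to 24.2% with 3 or more, and the share called lower from 20.7% to 7.79%.

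Stretches of 30 bases around these copies are shown for 5 genes that rose, to show how single and clustered copies look. Coordinates are GRCh38, and capitals mark the heptamer or a run of adjoining or overlapping copies, with any base between them in lower case. IL11 carried 7 copies in its 3′ UTR, IL8 4, IER5 4, DUSP1 3 and CCL20 1. IER5 is an immediate early gene that rose by 0.28 on the log2 scale, from 38.9 to 45 and from 34.3 to 44 FPKM, so a high copy number was also found beside a small change. NR4A1, TM4SF1, H1F0, HIST1H2AC, DHRS2 and PPP1R3C, all of the 15 highest, had 0 copies.
IL8, chr4:73743109-73743138, plus strand: aaccTATTTATTATTTATgTATTTATttaa
IL11, chr19:55365943-55365972, minus strand: ccagatctTATTTATTTATTTATttcagta
CCL20, chr2:227817282-227817311, plus strand: tgtattttatgtTATTTATagctgtaggtt
DUSP1, chr5:172768643-172768672, minus strand: agggctggtcctTATTTATttaacttcacc
IER5, chr1:181092446-181092475, plus strand: tcttccttTATTTATTTATTTATttaatta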

How the data were processed

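Total RNA of U2OS cells was isolated with TRIzol and RNeasy columns and sequenced from Illumina TruSeq RNA libraries, per the labels' protocols, and 4 libraries were used (siNT and siE2F7 at 0 and 3 h). The authors deposited FPKM per gene, 1 table per library; CASAVA 1.8 and build hg19 (GRCh37) are named in the submitters' processing notes. The aligner, the annotation, the filters and any scaling between times are not given in these sources. An identical set of genes is listed for both libraries of each time, and the set differs between times. Genes were joined by identifier; 76 listed at 0 in at least 1 library and 3247 with a mean under 5 FPKM were left out. Of the 8911 genes kept, 1465 share a locus with another entry, where reads could be split, 46 are small RNA entries and 6 carry a date number for a symbol and were not named. Loci are given in hg19 as the tables have them, with starts counted from 1.

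Values were tested as log2(FPKM + 0.1) using limma 3.58.1 (R 4.3.3), with arm and time as terms, a variance trend and Benjamini-Hochberg adjustment over all genes at 0.05, two-sided. Each gene had 1 residual degree of freedom, joined with 14.2 prior degrees of freedom, and the median residual SD was 0.105. On simulated data with 8911 genes, 50 genes each changed 1.5-, 2-, 3- and 4-fold were recovered at 100%, and 16 of 216 calls were false. The simulated noise was independent and had the residual SD of the fit, and each change was equal in both arms. These settings favour recovery, so the rates need not hold for the real libraries. Counts were not used here, so no counting error is given. Alternatives changed the pseudocount, level filter, scaling, libraries, variance trend, arm block and fold. Leaving out list members under 5 FPKM in both arms at 1 time was added after the data were seen.

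The members and gene lists were chosen with earlier results of these data known. Named genes are E2F7, the 15 with the highest and the 15 with the lowest change ranked by the weaker arm among called genes (small RNA entries left out), up to 4 from each end of each list, and 6 genes whose arms moved in opposite directions; others are named as list members, as neighbours in a pathway or as stated. For sequences, 7898 genes matched by current symbol and 820 by an older symbol. The 3′ UTRs come from GENCODE 29 (GRCh38) and the promoters from RefSeq (GRCh38.p14). A few results are not reported here.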

Additional observations from a re-analysis of the deposited data

Results flagged for a closer look

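In 7 genes the time change differed strongly between the arms, with 1 library per arm and time, so that the difference itself was not tested. The values given are the change with siE2F7 minus that with siNT, on the log2 scale. CSAG3, at a locus shared with another entry, differed by -5.77: it was listed at 0.00219 and 4.32 FPKM with siNT and at 10.4 and 8.19 with siE2F7, and limma called its mean change higher (adjusted p = 0.022) although the arms moved in opposite directions. E2F2, an activating E2F factor, differed by 1.54, at 5.04 and 1.89 FPKM with siNT and at 26.3 and 29.7 with siE2F7. The other 5 are small RNA entries: SNORD2 (3.25), SNORD44 (-3.01), MIR4721 (2.33), MIR4444-1 (2.15) and SNORD76 (-2).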

How the results depend on the processing

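Main limits are the single library per arm and time, tables deposited separately per time, unknown depth, and an error that holds any effect of E2F7 on the change. Against 244 genes at least 1.5-fold higher in both arms and 163 lower, the counts were 215 and 103 with a pseudocount of 1, 369 and 355 with a mean of at least 1 FPKM, 369 and 355 with no filter, 158 and 71 with a mean of at least 10 FPKM, 74 and 12 at 2-fold, and 708 and 884 past a log2 change of 0.32. In the siNT arm alone they were 390 and 426, and in the siE2F7 arm alone 391 and 360. Against 1060 and 1607 limma calls, 67 and 8 were called with no arm block; by the other alternatives these counts stayed within 1.5 times, with 910 and 1288 from all 6 libraries and 981 and 1415 without the variance trend. The share of calls that were higher was 39.7% as deposited, 48.7% with median centring, 47% with quantile normalization and 49.5% after rescaling to the same sum, which moved the median gene by 0.04. Of 156 called named genes, 132 were not called without the arm block, 16 with all 6 libraries, 11 without the trend and 9 after rescaling to the same sum. The change of CSAG3 reversed to -0.33 in the siE2F7 arm alone. Arm was the block that pairs 0 h with 3 h in all fits but the one without it, and the labels carry no replicate numbers for another pairing.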
